A study of Homo sapiens with 12 samples.

Results

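The 37 genes described here encode the enzymes of glycolysis and gluconeogenesis, the pyruvate dehydrogenase complex, the enzymes that make and break fructose-2,6-bisphosphate, and the transporters that carry glucose and lactate across the cell membrane. They were chosen by name from a list, though with earlier results of these data known. All 37 were found among the 58735 genes of the count table. The cells were 293T, a line derived from human embryonic kidney, that carried a lentiviral, doxycycline-inducible copy of the translation repressor 4EBP1 in which the phosphorylated residues were replaced by alanine (4EBP1-4A). Transduced cells were sorted as a population by GFP. RNA-seq of total RNA and Ribo-seq of ribosome-protected fragments were compared between 3 samples given DMSO and 3 given doxycycline (Dox, 2 mg/mL). The DMSO samples carried the same construct, and every sample received cycloheximide before harvest. The sample labels give 12 h of treatment and the series description gives 2 h. The study's text names a longer time elsewhere, so the time is uncertain. The study calls the samples biological replicates. The labels do not say whether those of a group came from separate cultures, so each p-value measures the spread between these samples, which may be technical. RNA was measured in bulk, where fewer cells of a kind and less RNA per cell cannot be told apart.

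In glycolysis a glucose molecule is trapped in the cell by hexokinase, phosphorylated again by phosphofructokinase, split by aldolase and turned into pyruvate with a net gain of ATP. Pyruvate is then reduced to lactate by lactate dehydrogenase or passed to the mitochondria through the pyruvate dehydrogenase complex, and gluconeogenesis runs most of the same steps backwards with its own enzymes at the irreversible ones. Most steps have several isozymes from separate genes, used to different extents in liver, muscle, brain and dividing cells.

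Between 21687906 and 57824136 reads fell on genes in the 6 RNA-seq libraries, and the smallest was Dox replicate 3. In that library 88.4% of all reads had no unique alignment, against 54.9% to 69.9% in the other 5, and its log2 levels correlated with theirs at r = 0.962 to 0.979, against 0.992 to 0.996 among the rest. The main test of RNA-seq change is therefore given with and without it. Shares, ratios, counts of groups without overlap and some fold changes use all 6 libraries unless stated. Reads of EIF4EBP1, which encodes 4EBP1, numbered 8501, 8244 and 8252 with DMSO and 12216, 13028 and 6778 with Dox, or 161 ± 7.60 against 269.5 ± 10.8 TMM-scaled counts per 1000000 reads (CPM; SD, n = 3 each), so the Dox libraries stood above the DMSO libraries once depth was scaled. All 7 markers of 293 cells that were looked for were above 1 CPM in every library, with a summed level of 990 to 1079 CPM with DMSO and 1112 to 1352 CPM with Dox. Most of this sum was VIM, at 770 to 825 CPM with DMSO and 817 to 923 CPM with Dox. The lowest of the 7, PAX2, was at 1.28 to 1.92 CPM with DMSO. The 4 blood, 3 hepatocyte and 3 skeletal muscle markers summed to at most 0.457, 0.552 and 1.22 CPM in any library. The 6 keratinocyte markers found summed to 5.85 to 6.59 CPM with DMSO and 2.60 to 5.26 CPM with Dox, with KRT5 and KRT14 at 0, and the 4 fibroblast markers to 10.8 to 13.4 CPM and 13.2 to 27.8 CPM. The 293 and keratinocyte sums did not overlap between the treatments and the fibroblast sums did, and their part in the results was not tested. The 37 genes held 2153113 RNA-seq reads, between 0.741% and 0.823% of the gene reads of a library.

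The cells used one gene for most of the RNA at some steps and several genes at others. Levels are given as reads per kilobase of the reference transcript, scaled to library size like CPM (RPKM), since reads per gene cannot be compared between transcripts of different length. GAPDH, which oxidises glyceraldehyde-3-phosphate, had the highest level of the 37 at 1212 ± 19.1 RPKM with DMSO (SD, n = 3) and ranked 6 among all protein-coding genes. ENO1, an enolase, followed at 969 ± 32.5 RPKM, then the pyruvate kinase PKM at 385 ± 5.97 RPKM, the triosephosphate isomerase TPI1 at 271 ± 9.41 RPKM and the lactate dehydrogenase LDHA at 220 ± 10.2 RPKM. At this length these 5 stood in an order in which no neighbours came within their SDs of each other. The SDs do not cover the choice of length, on which the order depends. With no length correction ENO1, at a DMSO mean of 1726 CPM, stood above GAPDH at 1557 CPM. Likewise LDHA, at 492 CPM, stood above TPI1 at 366 CPM. The lactate and pyruvate carrier SLC16A1 and the isomerase GPI came next at 100.002 ± 3.44 and 98.1 ± 1.40 RPKM, and this pair did not differ beyond its spread. At the other end HKDC1, PKLR, HK3, PCK1, SLC16A3 and FBP1 each had a mean below 0.32 RPKM with DMSO, and HKDC1 had 10 reads in the 6 libraries together.

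**Figure D1:**
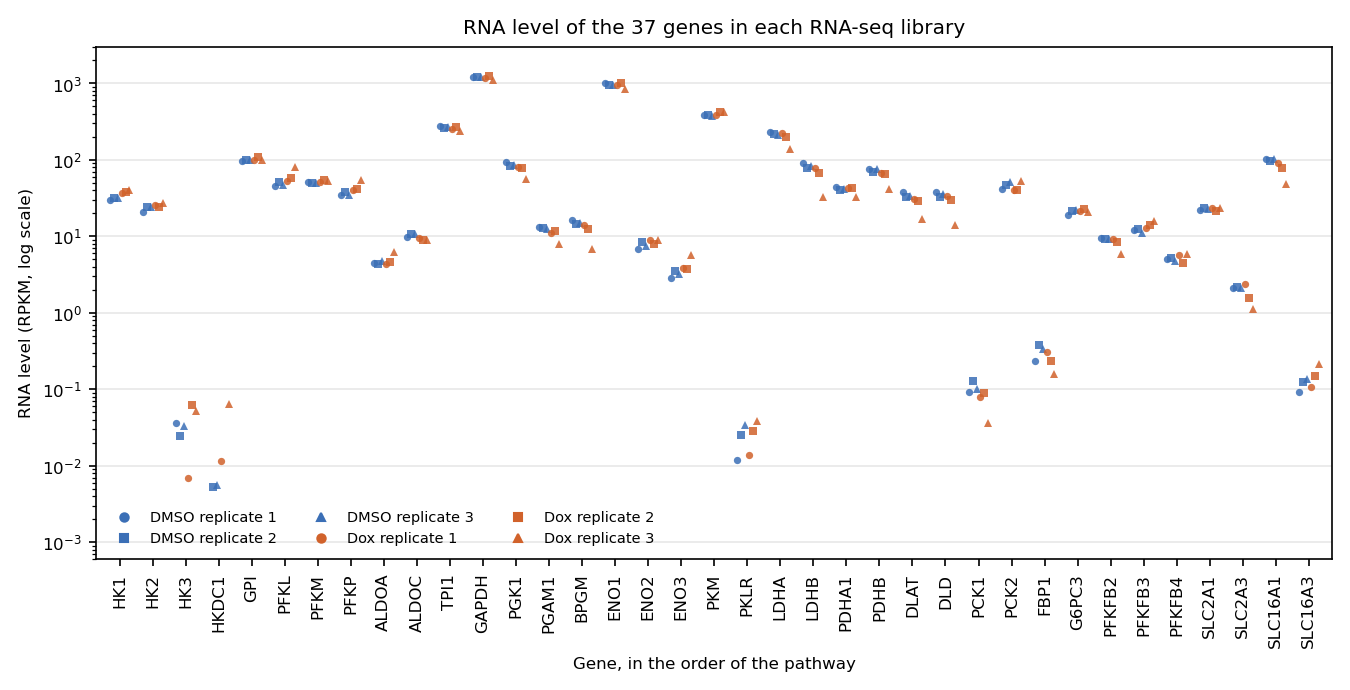
RNA level of the 37 genes in each of the 6 RNA-seq libraries, in RPKM on a log axis, in the order of the pathway, with DMSO in blue and Dox in orange. GAPDH at 1212 RPKM and ENO1 at 969 RPKM are at the top, 6 genes have DMSO means below 0.32 RPKM, and 2 libraries without an HKDC1 read are not drawn.

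Hexokinase, which traps glucose as glucose-6-phosphate, was made from HK1 and HK2 together. Both proteins are known for binding the outer mitochondrial membrane through their first residues, HK1 in most tissues and HK2 in muscle, fat and many tumours. The first 30 coding bases of each are shown because they encode this stretch, and because the Ribo-seq counts given further on depend on reads being told apart between the 2 genes. Capitals mark the bases that differ.
HK1: atgatCgccGcgcaGctCctGgcctaTtAc
HK2: atgatTgccTcgcaTctGctTgcctaCtTc
The HK1 stretch lies in exon 1 of its reference transcript at chr10:69318948-69318977 on the plus strand of GRCh38, and the HK2 stretch in exon 1 at chr2:74834581-74834610, also on the plus strand. Of these 30 bases 7 differ, and over the 2754 coding bases 2009 are identical without any gap (72.9%). The longest run that the 2 transcripts share is 30 bases. Of all 31-base windows of the reference transcript, none in HK1 and 16.7% in HK2 occurred in another gene. With a longest shared run of 30 bases, no such window could be shared by HK1 and HK2. The windows therefore do not show whether shorter reads of the 2 genes are told apart.

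HK1 had 5937, 5954 and 5487 reads with DMSO and HK2 had 6389, 7069 and 6575. Per kilobase this was 30.98 ± 0.698 RPKM for HK1 and 22.9 ± 1.83 RPKM for HK2, which ranked 18 and 19 of the 37 genes, next to each other in the middle of the list. HK1 held 57.5% ± 1.45 of the hexokinase reads per kilobase with DMSO and HK2 held 42.4% ± 1.45. The order of the 2 depended on the length used: HK1 held 42.7% when the union of all annotated exons was the length and 46.4% with no length correction. HK3 and HKDC1 held 0.0582% and 0.00652%, so RNA of the other 2 family members was near the limit of detection, 3 reads being worth 0.0519 to 0.138 CPM in these libraries.

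Phosphofructokinase, the committed step, was divided between 3 genes. PFKM, the muscle form, held 37.3% ± 1.32 of the reads per kilobase with DMSO, PFKL, the liver form, held 36.1% ± 1.003, and PFKP, the platelet form, held 26.6% ± 0.428. PFKM and PFKL did not differ beyond their spread at this length, but PFKM held 43.4% against 32.0% for PFKL with the union of all annotated exons and 39.8% against 36.1% with no length correction. PFKM stood at 157, 154 and 152 CPM with DMSO and at 160, 167 and 165 CPM with Dox, so that the groups did not overlap but differed by a log2 fold change of only 0.08 (SE 0.090, edgeR adjusted p = 0.554).

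In aldolase, which cleaves fructose-1,6-bisphosphate, ALDOC counts exceeded those of ALDOA, with ALDOC at 15.9, 17.1 and 17.3 CPM and ALDOA at 7.32, 7.16 and 7.89 CPM with DMSO. ALDOC thus held 69.6% ± 1.10 of the family. The counts of ALDOA are uncertain, because 89.8% of its reference transcript is also annotated on the same strand as exons of the gene ENSG00000285043, which had 891 reads of its own, and a read that fits 2 genes may be assigned to neither. When only bases outside such overlaps were used as the length, ALDOC held 19.0% and the order turned. The same holds for lactate dehydrogenase, which interconverts pyruvate and lactate: LDHA held 72.5% ± 1.11 and LDHB held 27.5% ± 1.11, but 76.5% of LDHB is covered by ENSG00000285854 on the same strand, and with unshared bases LDHA held 38.3%. LDHA was at 516, 489 and 471 CPM with DMSO and at 501, 454 and 311 CPM with Dox, where the low value is that of Dox replicate 3.

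Single genes dominated at the enolase and pyruvate kinase steps, and the mutase reads were spread over PGAM1 and BPGM. ENO1 held 98.9% ± 0.137 of the enolase reads per kilobase, against 0.777% for ENO2, the neuronal form, and 0.327% for ENO3, the muscle form. ENO1 was at 1792, 1696 and 1688 CPM with DMSO and 1687, 1796 and 1529 CPM with Dox, and these groups overlapped. PKM was at 893, 897 and 872 CPM with DMSO and 897, 988 and 965 CPM with Dox, while PKLR, the liver and red cell pyruvate kinase, had 20 reads in all. Of the mutases, BPGM, which makes 2,3-bisphosphoglycerate, held 54.5% ± 1.40 of the reads per kilobase and PGAM1, the glycolytic form, 45.5% ± 1.40. BPGM stood at 28.2, 24.6 and 25.9 CPM with DMSO and at 23.9, 21.3 and 11.8 CPM with Dox, with no overlap. The level of PGAM1 carries a limit, since 67.0% of its 31-base windows occurred in other genes, 13 named pseudogenes among those counted, and reads that align to several places were not counted. In BPGM this share of windows was 0%. PGAM1 may therefore be undercounted beside BPGM, and the order of the pair is uncertain. The same share was 50.4% in GAPDH, 43.3% in the glucose transporter SLC2A3, 37.2% in TPI1 and 25.6% in LDHA. If the counting did not use the strand, which is not stated in the sources used here, reads could also not be told apart from genes on the opposite strand, which covered 32.8% of GAPDH, 28.5% of PDHA1, 25.9% of DLAT and 18.5% of SLC16A3.

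Among the enzymes that belong to gluconeogenesis, the mitochondrial carboxykinase PCK2 held 99.8% of the reads per kilobase of its pair and the cytosolic PCK1 0.233%. PCK2 stood at 89.4, 101.2 and 110.4 CPM with DMSO and at 87.6, 87.9 and 114 CPM with Dox, so the groups overlapped through Dox replicate 3. FBP1, fructose-1,6-bisphosphatase, was at 0.315 ± 0.0714 RPKM with DMSO, while the widely expressed glucose-6-phosphatase G6PC3 was at 20.8 ± 1.73 RPKM. The bifunctional enzymes that set fructose-2,6-bisphosphate, an activator of phosphofructokinase, were PFKFB3 at 45.4% ± 1.01, PFKFB2 at 35.5% ± 1.41 and PFKFB4 at 19.1% ± 0.478 of their family. With no length correction the order of the first 2 turned, with PFKFB2 at 48.2% and PFKFB3 at 39.0%. PFKFB3 stood at 55.1, 55.5 and 50.001 CPM with DMSO and at 57.4, 62.5 and 71.4 CPM with Dox, without overlap. For glucose uptake SLC2A1 held 91.4% against 8.57% for SLC2A3, at 74.9, 78.4 and 76.2 CPM with DMSO and 79.0, 71.6 and 78.6 CPM with Dox. SLC16A1 held 99.9% of the monocarboxylate carrier pair. The subunits of the pyruvate dehydrogenase complex lay within a narrow range, PDHB at 73.9 RPKM, PDHA1 at 42.0, DLD at 35.3 and DLAT at 34.8 RPKM with DMSO.

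No isozyme share passed its test between DMSO and Dox. Of 27 shares in 11 families, 7 did not overlap between the groups: those of PFKM, ALDOC, LDHB and PFKFB2 were lower with Dox and those of ALDOA, LDHA and ENO3 higher. The 2 shares of a pair of isozymes are 1 measurement. The LDHA share was 71.9%, 73.8% and 71.9% with DMSO and 74.0%, 74.8% and 80.7% with Dox, a difference of 3.93 percentage points, and of 1.82 without Dox replicate 3. The PFKM share was 38.5%, 35.9% and 37.5% with DMSO and 35.5%, 35.1% and 28.2% with Dox, lower by a mean that Dox replicate 3 moved most. Each of these had p = 0.1 in a two-sided exact permutation test, the smallest that 3 against 3 can give, and 0.36 after Benjamini-Hochberg adjustment over the 27 shares. The HK1 share was 59.2%, 56.8% and 56.5% with DMSO and 58.9%, 61.3% and 59.4% with Dox, and overlapped (exact permutation p = 0.2, two-sided).

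**Figure D2:**
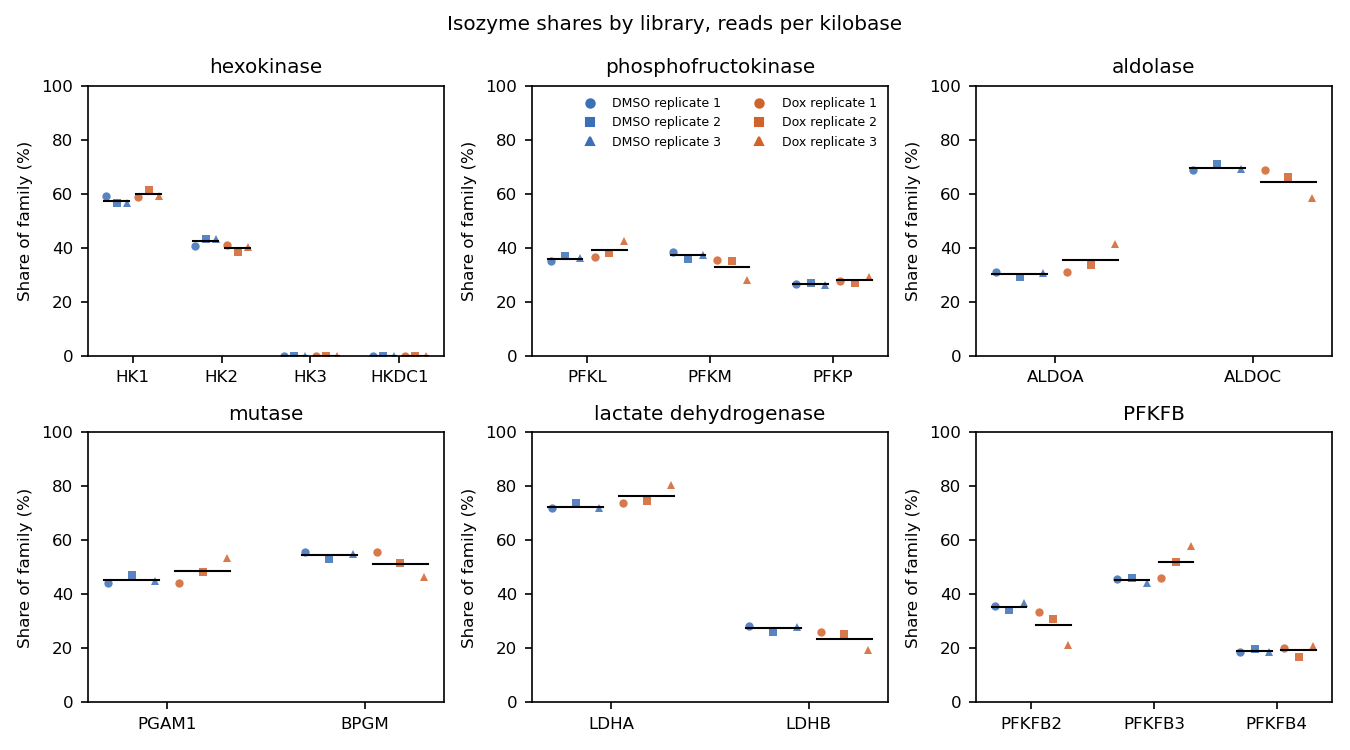
Share of each isozyme in the reads per kilobase of its family (percent), for 6 families, with a point for each library and a black line at the mean of 3. Phosphofructokinase is spread over 3 genes with means of 26.6% to 37.3% with DMSO, and the Dox replicate 3 triangle lies farthest from the DMSO points for PFKM, ALDOC, LDHB and PFKFB2.

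The next comparison asked which of these RNAs changed when 4EBP1-4A was induced. Of the 37 genes, 34 had at least 10 reads in at least 3 RNA-seq libraries and were tested, and HK3, HKDC1 and PKLR were not. With all 6 libraries, the quasi-likelihood test of edgeR, adjusted over the 20552 genes tested by the method of Benjamini and Hochberg, called none of the 34 lower and none higher, as it called 0% of all genes in each direction. The induced gene EIF4EBP1 was not called either, at a log2 fold change of 0.75 (edgeR adjusted p = 0.326). Without Dox replicate 3 it was called at 0.75 (edgeR adjusted p = 1.17e-05). The lack of calls with all 6 libraries therefore does not show a lack of change. The DESeq2 Wald test also called none of the 34 (against 0.00973% of all genes lower and 0.00487% higher), nor did edgeR's likelihood ratio test (against 0.0341% and 0.0243%). At an unadjusted p under 0.05 edgeR gave 4 higher, ENO3, HK1, PFKL and PFKP (11.8% against 9.58% of all genes), and 0 lower (against 4.13%). The median log2 fold change was -0.051 over the 34 and -0.035 over all genes tested, with 14 above 0 and 20 below. When scaled by library totals alone, both medians were 0.097, a shift of all genes by more than the distance between the 2 medians.

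Without Dox replicate 3, 1 of the 34 rose and 1 fell. HK1 was higher (2.94% of the 34, against 3.38% of all genes) and SLC16A1 lower (2.94% against 3.99%), so the share of these genes that passed was close to that of all genes in both directions. At an unadjusted p under 0.05 there were 5 higher (HK1, ENO3, PFKL, PFKP and PFKFB3, 14.7% against 11.9%) and 8 lower (SLC16A1, DLAT, BPGM, LDHB, PDHB, PGAM1, PGK1 and PCK2, 23.5% against 13.8%). The DESeq2 Wald test without that replicate called HK1, PFKL and PFKP higher (8.82% against 4.83%) and SLC16A1 and DLAT lower (5.88% against 5.21%). With library totals edgeR called the same 3 higher (8.82% against 7.02%) and none lower (against 1.64%), and with DESeq2 size factors it called HK1 (against 3.57%) and SLC16A1 (against 3.28%). Without regard to any model, the 3 DMSO and 3 Dox values of 8 genes did not overlap with Dox higher (23.5% against 17.7% of all genes), HK1, HK2, GPI, PFKL, PFKM, PFKP, ENO3 and PFKFB3. They did not overlap with Dox lower in another 8 (23.5% against 20.8%), ALDOC, PGK1, PGAM1, BPGM, PDHB, DLAT, PCK1 and SLC16A1.

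HK1 was at 109, 113 and 113 CPM with DMSO and at 135, 139 and 144 CPM with Dox, and every Dox library stood above every DMSO library. The log2 fold change was 0.32 (SE 0.092, edgeR adjusted p = 0.326) with all 6 libraries, which ranked 5 of the 34. Without Dox replicate 3 it was 0.29 (SE 0.061, 95% interval 0.16 to 0.42, edgeR adjusted p = 0.0157), a 1.22-fold change that ranked 1 of the 34. In all 6 fits made without that replicate HK1 was called, with log2 fold changes of 0.22 to 0.36 and an adjusted p of at most 0.0157. These 6 are this fit and those with DESeq2 size factors, library totals, the DESeq2 Wald test, a GC offset and a block for replicate number. All 6 use the same libraries and are not independent of each other. The block pairs samples of the same number, which did not deviate together.

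HK2 was at 117, 135 and 135 CPM with DMSO and at 147, 137 and 153 CPM with Dox, again without overlap, but with Dox replicate 2 close to 2 DMSO libraries. Its log2 fold change was 0.17 (SE 0.11, edgeR adjusted p = 0.348) with all 6 libraries and 0.13 (95% interval -0.016 to 0.28, edgeR adjusted p = 0.246) without Dox replicate 3, and it ranked 8 of the 34 both times. The ratio of HK1 to HK2 reads needs no scaling between libraries, and was 0.929, 0.842 and 0.835 with DMSO and 0.918, 1.02 and 0.940 with Dox. The groups overlapped, and the log2 ratio differed by 0.14 (exact permutation p = 0.2, two-sided, 0.1 being the smallest possible). Without Dox replicate 3 the log2 ratio differed by 0.15. A difference between the changes of HK1 and HK2 was therefore not shown.

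**Figure D3:**
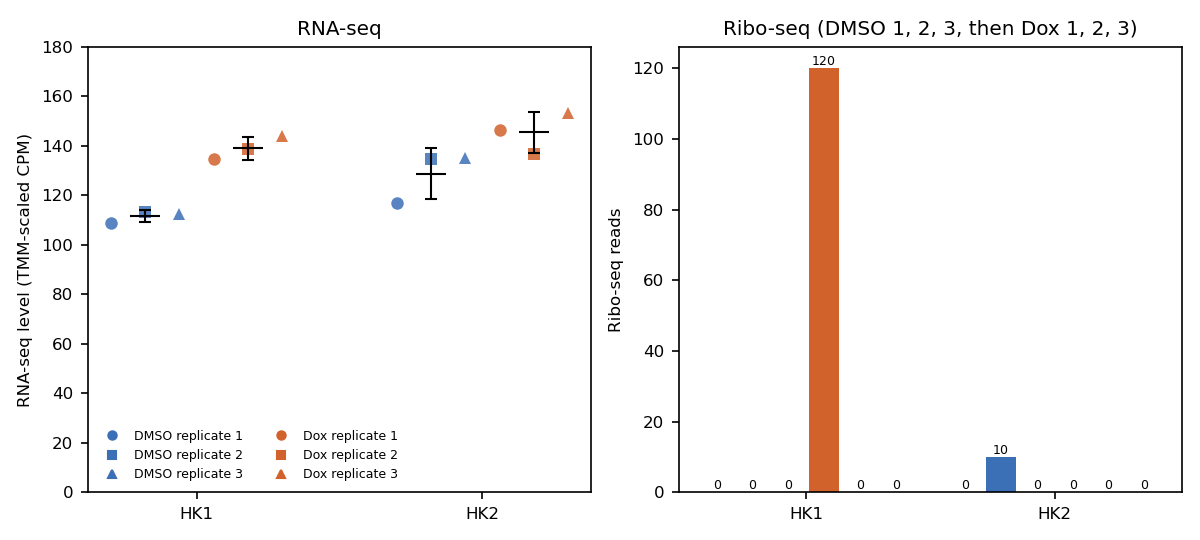
Left, HK1 and HK2 in the 6 RNA-seq libraries (TMM-scaled CPM, points are libraries, bars are mean and SD of 3). Right, Ribo-seq reads of both genes in each library, where all 120 HK1 reads lie in Dox replicate 1 and all 10 HK2 reads in DMSO replicate 2.

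SLC16A1, which exports lactate with a proton, was at 382, 360 and 383 CPM with DMSO and at 338, 293 and 182 CPM with Dox. All 3 Dox libraries were lower, Dox replicate 3 by far the most. The log2 fold change was -0.47 (SE 0.21, edgeR adjusted p = 0.326) with all 6 libraries and -0.25 (SE 0.069, edgeR adjusted p = 0.0356) without Dox replicate 3. That call held in 4 of the 6 fits made without this replicate, the one with the block among them. It was lost with library totals (adjusted p = 0.0771) and with a GC offset (adjusted p = 0.179), where the log2 fold change was -0.19 and -0.11.

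The largest positive values with all 6 libraries were those of ENO3, PFKL and PFKP. ENO3 was at 4.18, 5.08 and 4.66 CPM with DMSO and 5.68, 5.51 and 8.40 CPM with Dox (log2 fold change 0.48, SE 0.19). PFKL was at 134, 149 and 138 CPM and then at 155, 170 and 234 CPM (0.41, SE 0.16), and PFKP at 91.7, 98.9 and 90.7 CPM and then at 106, 109 and 146 CPM (0.36, SE 0.14). All 3 had an edgeR adjusted p of 0.326, and without Dox replicate 3 their log2 fold changes were 0.27, 0.21 and 0.20 with edgeR adjusted p of 0.148, 0.0628 and 0.0660. In each of the 3 the Dox replicate 3 value was the highest of the 6 libraries.

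The largest negative values were those of PCK1, SLC16A1 and LDHB. PCK1 rested on 22, 29 and 21 reads with DMSO and 16, 18 and 4 with Dox, and its log2 fold change of -0.55 had an SE of 0.32. LDHB was at 118, 100.9 and 107 CPM with DMSO and at 103, 89.1 and 43.3 CPM with Dox, where Dox replicate 1 overlapped the DMSO libraries (log2 fold change -0.47, SE 0.29, edgeR adjusted p = 0.346, and -0.18 with adjusted p = 0.144 without Dox replicate 3). Of the pyruvate dehydrogenase subunits, DLAT (-0.45), DLD (-0.44) and PDHB (-0.34) had negative log2 fold changes of like size with all 6 libraries, and -0.22, -0.15 and -0.15 without Dox replicate 3, while PDHA1 was at -0.11 and 0.010. None of the 4 passed the threshold. At the highest levels, GAPDH, ENO1, PKM and TPI1 had log2 fold changes of -0.041, -0.047, 0.098 and -0.098, with 95% intervals whose bounds lay between -0.32 and 0.31.

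**Figure D4:**
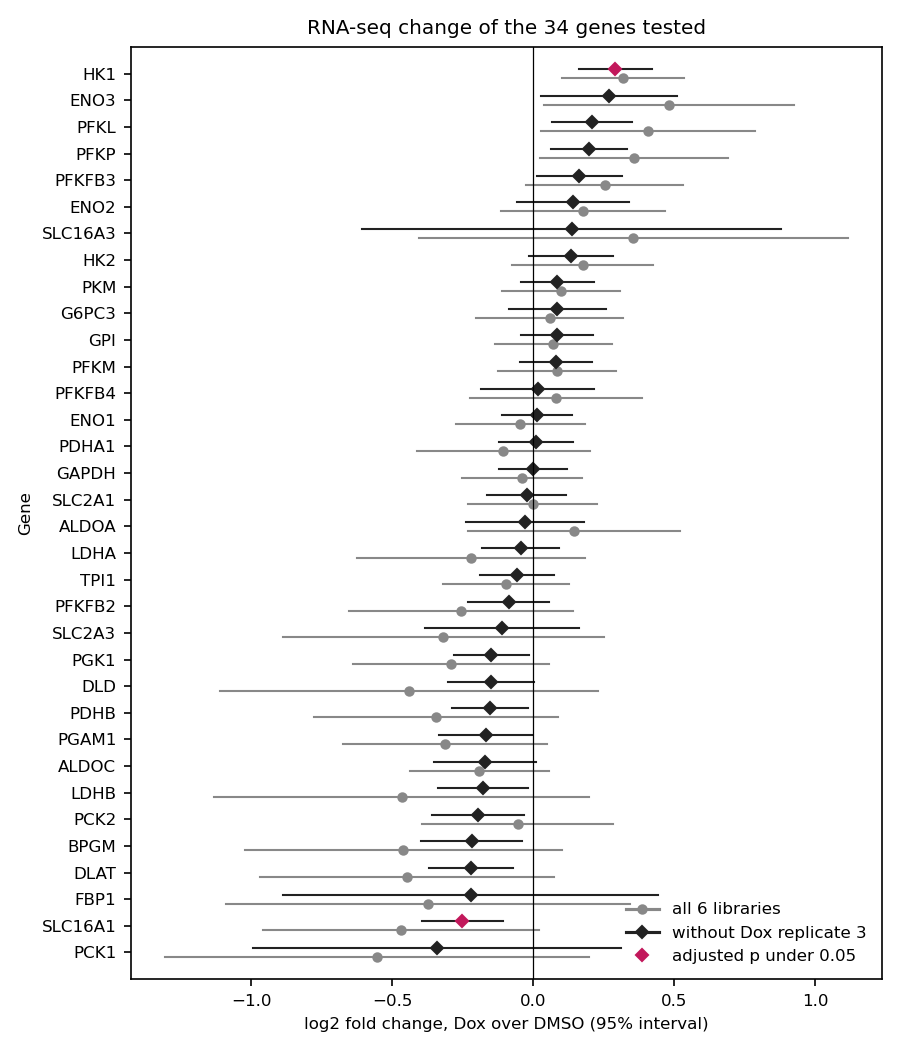
log2 fold change of Dox over DMSO with its 95% interval for the 34 genes tested, with all 6 libraries (grey circles) and without Dox replicate 3 (black diamonds, magenta where the edgeR adjusted p is under 0.05), ordered by the second fit. HK1 at 0.29 and SLC16A1 at -0.25 are the magenta points, and most negative values lie nearer to 0 without Dox replicate 3.

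The changes of these genes moved with the GC content of their transcripts. Over the 34 genes, Pearson's r between GC content and the log2 difference from the DMSO mean was 0.26 in Dox replicate 1, 0.65 in Dox replicate 2 and 0.80 in Dox replicate 3. These points share their libraries and are a description over genes, which are not independent replicates. Over 20396 genes the same r was 0.28, 0.50 and 0.66 in the Dox libraries and -0.28, 0.24 and 0.054 in the DMSO libraries. Each of the 9 genes with less than 45% GC (LDHA, LDHB, PDHB, DLAT, DLD, PGK1, BPGM, PFKFB2 and SLC16A1) had a negative log2 fold change, from -0.47 to -0.22 with all 6 libraries and from -0.25 to -0.046 without Dox replicate 3. Of the 13 genes with 55% or more, 9 were positive with all 6 libraries. HK1 and HK2 lay between, at 54.2% and 50.5% GC. With an offset for GC content fitted in each library, a setting added after the data were seen, HK1 was at 0.20 with all 6 libraries (edgeR adjusted p = 0.298) and at 0.22 without Dox replicate 3 (adjusted p = 0.0124). In the latter fit PCK2 at -0.32 and PGAM1 at -0.23 were called lower (5.88% of the 34 against 1.93% of all genes) and HK1 higher (2.94% against 2.08%). GC content, the share of reads without a unique alignment and treatment moved together in these libraries, and the part of GC content in the results was not tested beyond these fits.

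**Figure D5:**
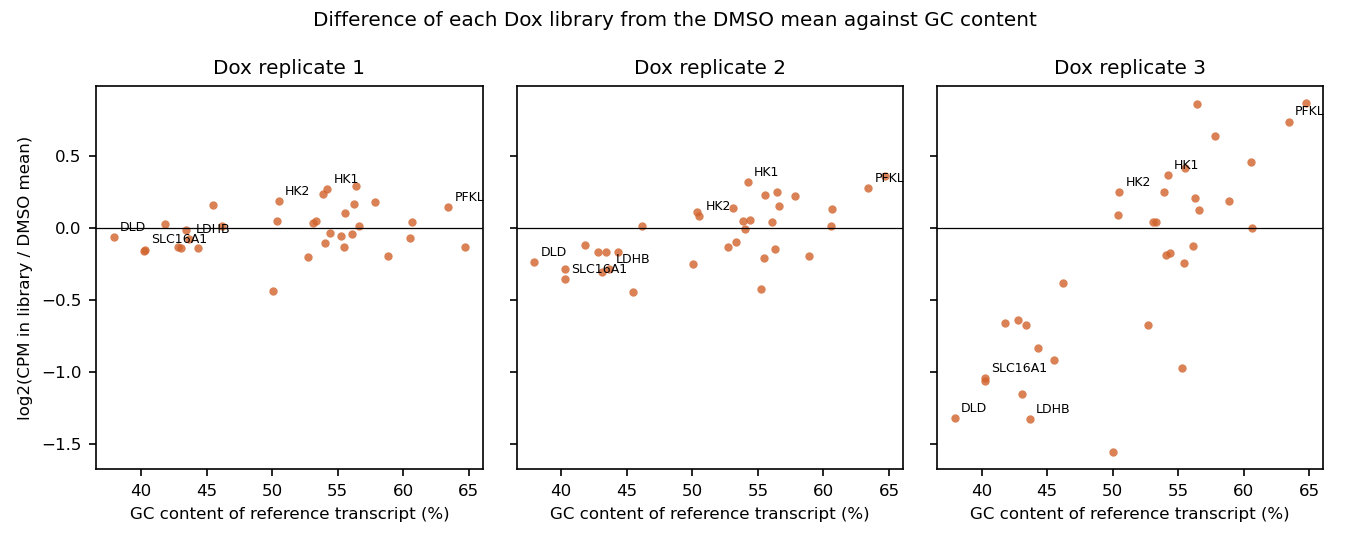
log2 of the CPM in each Dox library over the DMSO mean against the GC content of the reference transcript (percent), for the 34 genes tested. The slope is steepest in Dox replicate 3, where DLD, SLC16A1 and LDHB lie below -1 and PFKL above 0.7.

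Other genes of the pathway were taken from lists that did not include the 37. Of 41 further genes of glycolysis and pyruvate use, 30 were tested and none was called with all 6 libraries. Without Dox replicate 3, 3 of the 30 were lower, against 3.99% of all genes: PDHX, the binding protein of the pyruvate dehydrogenase complex (log2 fold change -0.25, edgeR adjusted p = 0.0466), SLC2A12, a glucose transporter (-0.35, adjusted p = 0.0347), and EMB, embigin, a partner of monocarboxylate carriers (-0.36, adjusted p = 0.0191). None was higher (against 3.38% of all genes), and the median of the 30 was -0.079 against -0.0095 over all genes. With a GC offset none of the 30 was lower (against 1.93% of all genes) and PDP2, a phosphatase of pyruvate dehydrogenase, was called higher (against 2.08%). With library totals EMB alone was lower (against 1.64% of all genes) and SLC2A8, a glucose transporter, was higher (against 7.02%). None of the 8 genes of the pentose phosphate pathway was called (median 0.065). Of 14 tested targets of the hypoxia factor HIF-1 outside glycolysis, only DDIT4, an inhibitor of mTORC1 signalling, was lower (-0.38, edgeR adjusted p = 0.0298, against 3.99% of all genes), and their median was -0.065. DDIT4 was at 150, 190 and 206 CPM with DMSO and at 149, 131 and 195 CPM with Dox, where the excluded replicate overlapped the DMSO libraries. Outside the pathway, 2 of the 7 markers of 293 cells were higher without Dox replicate 3, against 3.38% of all genes. They were NEFM (0.47, edgeR adjusted p = 0.0091) and KRT18 (0.33, edgeR adjusted p = 0.0326), and no marker of this list was lower (against 3.99%).

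Ribo-seq held too few reads on these genes to compare their translation. The 6 Ribo-seq libraries had 210186 to 1002424 reads on genes, and the 37 genes had 246 of these in all. No read fell on 11 of them, among them GPI, ALDOA, PGAM1, LDHB and SLC16A1, and 6 had at least 10 reads. HK1 had 120 reads, all of them in Dox replicate 1, where they made up 136 CPM, and 0 in the other 5 libraries, in which 3 reads would have been 2.99 to 14.3 CPM. HK2 had 10 reads, all in DMSO replicate 2 (13.9 CPM). PDHA1, a subunit of pyruvate dehydrogenase, had 12 reads, all in Dox replicate 2. For these 3 genes a single library held every read, so no value of the other replicates stands beside it.

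The other 3 genes with at least 10 reads were spread more widely. ENO1 had 0, 7 and 1 reads with DMSO and 8, 0 and 0 with Dox, and PKM had 0, 5 and 4 with DMSO and 1, 1 and 0 with Dox. PCK1 had 1 read in each DMSO library and 1, 5 and 5 with Dox, although its RNA-seq counts of 4 to 29 were among the lowest of the list. Translation efficiency, the change in Ribo-seq beyond that in RNA-seq, was tested with edgeR as the interaction of assay and treatment. A gene entered this test through 10 Ribo-seq reads summed over all libraries, and HK1, PDHA1 and HK2 reached that number only through the 1 library that held all their reads, and PCK1 mainly through Dox. The filter, also that of Ribo-seq alone, therefore set the direction of the first 3 and favoured that of PCK1, and these directions are not results. None of the 6 genes was called lower or higher, against 0.15% and 0% of the 1334 genes tested, and the lowest edgeR adjusted p was 0.209. At an unadjusted p under 0.05 there were 3 with more reads in Dox, HK1, PDHA1 and PCK1 (against 7.50% of all), and 1 with fewer, HK2 (against 13.3%), which are these same 4 genes. The likelihood ratio test called HK1, PDHA1 and PCK1 (against 6.37% of all higher and 8.62% lower), and the DESeq2 Wald test called none of the 6 (against 2.4% lower and 1.65% higher). In the Ribo-seq libraries alone edgeR also called none of the 6 (0% of the 1607 genes tested in each direction), with HK1 higher at an unadjusted p under 0.05 (against 3.67% of all) and none lower (against 5.48%). GAPDH and ENO1, with 424204 and 470341 RNA-seq reads, had 5 and 16 Ribo-seq reads.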

How the data were processed

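RNA-seq and Ribo-seq of 12 libraries, 3 per group and assay, were grouped by the sample labels. The deposited counts are raw reads per gene, made by the authors: linker was trimmed from the Ribo-seq reads, reads from ribosomal RNA were removed, the rest were aligned with STAR, and uniquely aligned reads were counted on exons. GRCh37 and Ensembl 75 are named in the labels, GRCh38 in the methods. Of the deposited table of translation efficiency only the gene symbols and identifiers were used, to match genes by name. Its ratios, p-values and log2 changes, made by the authors, were not used. The 186 rows that are not genes stayed out, and genes took 5.94% to 30.8% of the RNA-seq reads and 0.888% to 2.95% of the Ribo-seq reads. All 37 genes, and 99.1% of the table, matched GENCODE release 44 on GRCh38, which gave lengths (canonical transcript), GC content and coordinates. The genes and lists were chosen with earlier results of these data known.

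Genes with at least 10 reads in at least 3 RNA-seq libraries were tested with edgeR 4.0.16 in R 4.3.3 (TMM, glmQLFTest, Benjamini-Hochberg over all genes, threshold 0.05), and translation efficiency over genes with at least 10 reads in each assay. SE is the log2 fold change over the root of F. Shares and ratios were tested with exact permutation tests (scipy 1.17.1). Alternatives were DESeq2 1.42.0, other scalings, filters and lengths, a replicate block, a GC offset (lowess, span 0.3) and leaving out each library. Genes with values for each library were both hexokinases, the leading isozyme of each family, those called, and the 3 largest changes each way. Values for ALDOA, and the Ribo-seq reads, were added after they were seen. The scripts were tested on simulated data.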

Additional observations from a re-analysis of the deposited data

How the results depend on the processing

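With all 6 libraries no alternative called any of the 34 genes in RNA-seq, while over all genes the DESeq2 Wald test called 2 lower and 1 higher and the likelihood ratio test 7 and 5. Leaving out 1 library at a time, also combined with another setting, gave 0 to 8 of the 34 lower, 0 to 4 higher, and 0 to 2612 of all genes lower and 0 to 2120 higher, with every count above 0 obtained without Dox replicate 3. Without it, TMM gave 819 lower and 694 higher, library totals 338 and 1443, a GC offset 397 and 428, DESeq2 size factors 675 and 734, the DESeq2 Wald test 1070 and 992, and the replicate block 2612 and 2120. Samples with the same number did not deviate together (r = 0.25, -0.20 and 0.023). The block is therefore given only here and among the 6 fits counted for HK1 and SLC16A1 above. With the block 8 of the 34 were lower and 4 higher without Dox replicate 3, 0 with all 6 libraries, and 0 genes were lower in translation efficiency. Its exact p for the HK1 to HK2 ratio was 0.5.

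Of 677 values over 20 alternatives, 592 kept direction and side of the threshold, 27 were newly called and 58 changed sign, in 14 genes. With the GC offset (and with the block added) these were GPI -0.013 (-0.014), ALDOA -0.16 (-0.15), PKM -0.0795 (-0.0818), LDHA 0.053 (0.053), PDHA1 0.020 (0.020), G6PC3 -0.21 (-0.23), PFKFB4 -0.087 (-0.095) and SLC16A3 -0.020 (-0.015). With library totals they were TPI1 0.043, GAPDH 0.10, ENO1 0.093, PDHA1 0.025, PCK2 0.10 and SLC2A1 0.14, and SLC2A1 was 0.041 with DESeq2 size factors and 0.040 with the Wald test. Leaving out 1 library at a time gave ranges across 0 for ALDOA (-0.029 to 0.25), ENO1 (-0.10 to 0.012), PDHA1 (-0.17 to 0.010), PCK2 (-0.20 to 0.036), G6PC3 (-0.0084 to 0.12) and SLC2A1 (-0.024 to 0.043), and for the PKM share (-0.00180 to 0.00117 percentage points). Without Dox replicate 3 there were also, with DESeq2 size factors (and its Wald test), ALDOA -0.0232 (-0.0233), GAPDH 0.0055 (0.0055), ENO1 0.018 (0.018) and PDHA1 0.017 (0.017), with library totals TPI1 0.0089, GAPDH 0.066, ENO1 0.078, LDHA 0.019, PDHA1 0.076 and SLC2A1 0.040, with the block PDHA1 0.0048 and PFKFB4 -0.028, and with a GC offset ALDOA -0.18, PKM -0.019, LDHA 0.068, PDHA1 0.050, DLD 0.036, G6PC3 -0.067, PFKFB4 -0.081 and SLC16A3 -0.066.

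In translation efficiency 2 genes were lower; library totals gave 1, no filter 7 lower and 3 higher, the likelihood ratio test 115 and 85 with 3 of the 6 genes, whose direction the read filter set or favoured, among the 85, the DESeq2 Wald test 32 and 22, and leaving out a library 0 to 1 in each direction. ENO1 was -0.27 with library totals against 0.36, and ran from -0.35 to 0.99 without a library, and from -0.36 to 0.86 in Ribo-seq alone.

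With the union of exons (and with no length correction) the DMSO shares were HK1 42.7% (46.4%), PFKM 43.4% (39.8%), ENO1 98.5% (98.7%), LDHA 69.2% (82.0%), PCK2 99.7% (99.5%), PFKFB3 48.3% (39.0%), SLC2A1 91.2% (90.4%) and SLC16A1 99.94% (99.92%), ALDOC 76.7% and PKM 99.98% with the union, and ALDOC 19.0% and LDHA 38.3% with unshared bases. The cause of these differences was not tested. Depth limits HK3, HKDC1, PKLR and all Ribo-seq values.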
